A study of Mus musculus with 8 samples.

Results

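The genes described here encode the chemokines, the interleukins and their receptors, read in mouse gastrocnemius (GAS) muscle with and without knockdown of MYTHO. They were taken as every gene symbol on the array that begins with Ccl, Cxcl, Ccr, Cxcr or Il followed by a digit. A symbol on several probe sets was represented by its brightest one over the 8 arrays. The rule gave 136 genes from 149 of the 22206 probe sets: 24 CC ligands, 13 CXC ligands, 11 CC receptors, 6 CXC receptors, 37 interleukins, 40 interleukin receptor chains, 4 soluble inhibitors and the enzyme gene *Il4i1*. On 6 of them, among which were *Ccl21a*, *Ccl21b*, *Ccl21c* and *Ccl27b*, the probe set also named another gene, so near-identical copies could not be separated.

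The muscles came from male C57/Bl6j mice, given by the labels as 14 weeks old, collected 3 weeks after a virus injection. In each animal, one leg received an adeno-associated virus (AAV) in which the U6 promoter drove a short hairpin RNA against the *Mytho* transcript, listed as D230025D16Rik (AAV sh-RNA MYTHO). The opposite leg received the same kind of virus with a scramble hairpin (AAV sh-RNA scrmb), so that both groups carried virus and hairpin and neither was uninjected muscle. The U6 promoter is not restricted to muscle fibres. RNA was taken from pieces of whole muscle and read on 8 Clariom S arrays, 4 per group, and the 4 animals are called A to D.

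Chemokines are small secreted proteins that direct the migration of cells through receptors that span the membrane 7 times and couple to G proteins; their names follow the spacing of the first cysteines (CC or CXC). Interleukins act on receptors built of several chains, some shared, of which gp130 (encoded by *Il6st*) and the common gamma chain (encoded by *Il2rg*) serve whole families. Healthy muscle holds few leukocytes, but its fibres, endothelium and connective tissue cells are themselves sources of factors such as interleukin-15 and the chemokine CXCL12. In RNA from whole muscle, fewer cells of a type and less RNA per cell cannot be told apart.

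No member passed the test for a difference between the groups after adjustment over all probe sets (limma, Benjamini-Hochberg, adjusted p under 0.05), which 0.027% of all probe sets did, and 14 of the 136 had an unadjusted p under 0.05, of which 3 were higher and 11 lower in MYTHO muscles, where 4.81% of all probe sets were higher and 7.58% lower at that level. Centring each array on its probe sets for olfactory receptors, genes best known from the nose, adds the same amount to every log2 fold change, and by construction more were then higher: 15 members and 13.1% of all probe sets, with 5 members and 3.29% of all probe sets lower. Among the 19 members above background on every array, the largest differences were those of the receptor gene *Ccr7* and the B cell attractant *Cxcl13*, which had lower signals with MYTHO knockdown, by 0.86 and 0.92 on the log2 scale. The interleukin-1 family gene *Il1f10* was lower by 1.17 and the common gamma chain gene *Il2rg* higher by 0.88, both at signals near or below background. Of the members with the brightest signals, *Il6st* and *Ccl11* had log2 fold changes of -0.15 and -0.02. *Cxcl12* had one of 0.49 (limma, unadjusted p = 0.0761, and 0.0486 with the animal as a block).

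Promoter windows from RefSeq (GRCm38.p6, running from 250 bases before the start site to 50 bases from it on) were given for 103 of the 136 genes. There was none for *Ccr7*. Those of 4 genes described below are shown: the lymphoid chemokine genes *Cxcl13* (chr5:95956689-95956988, + strand) and *Ccl21a* (chr4:42773942-42774241, - strand), the stromal chemokine gene *Cxcl12* (chr6:117168285-117168584, + strand) and *Il2rg* (chrX:101268206-101268505, - strand). Each is written 5′ to 3′ on the strand of the gene, and capitals mark letters that match GGGNNTTCC, a form of the site bound by NF-kB, TTCNNNGAA, the spacing bound by STAT factors, or TATAAA, the TATA box, each searched on both strands.
Cxcl13: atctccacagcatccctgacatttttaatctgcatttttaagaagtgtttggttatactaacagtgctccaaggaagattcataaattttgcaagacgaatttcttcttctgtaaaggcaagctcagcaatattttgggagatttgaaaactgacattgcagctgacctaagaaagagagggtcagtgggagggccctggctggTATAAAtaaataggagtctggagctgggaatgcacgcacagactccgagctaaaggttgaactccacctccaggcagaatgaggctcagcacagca
Ccl21a: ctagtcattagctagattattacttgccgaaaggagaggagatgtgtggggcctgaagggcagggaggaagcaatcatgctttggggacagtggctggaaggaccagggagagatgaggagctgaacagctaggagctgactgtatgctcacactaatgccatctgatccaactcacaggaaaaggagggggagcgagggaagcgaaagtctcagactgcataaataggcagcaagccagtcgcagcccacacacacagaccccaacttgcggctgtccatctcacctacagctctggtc
Cxcl12: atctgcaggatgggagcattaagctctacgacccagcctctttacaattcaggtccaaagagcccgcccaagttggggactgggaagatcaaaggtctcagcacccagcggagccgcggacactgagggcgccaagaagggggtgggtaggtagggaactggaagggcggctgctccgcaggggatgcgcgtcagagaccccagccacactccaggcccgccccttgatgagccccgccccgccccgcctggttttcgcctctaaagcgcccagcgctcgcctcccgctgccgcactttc
Il2rg: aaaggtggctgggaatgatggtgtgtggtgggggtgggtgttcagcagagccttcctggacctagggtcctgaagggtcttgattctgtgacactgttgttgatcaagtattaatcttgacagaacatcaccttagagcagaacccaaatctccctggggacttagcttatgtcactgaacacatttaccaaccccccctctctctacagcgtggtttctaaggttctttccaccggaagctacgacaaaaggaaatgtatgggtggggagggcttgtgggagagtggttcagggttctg

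The *Cxcl13* window held TATAAA, starting 46 bases before the start site, and no other match, and the windows of *Ccl21a*, *Cxcl12* and *Il2rg* held none of the 3 patterns. The letters GGGNNTTCC occurred in 9.6% of 125 windows of the members, where a gene can have several windows, and in 5.82% of all 32851 windows. TTCNNNGAA occurred in 11.2% of the members' windows and 8.3% of all, and TATAAA in 20% and 13.6%. These are matches of letters, not sites shown to be bound, and they were not tested.

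The hairpin target was read on every array. The log2 signal of *D230025D16Rik* was 11.35, 11.31, 10.78 and 11.05 on the scrmb side (animals A to D, in this order throughout) and 8.16, 8.20, 8.80 and 8.08 on the MYTHO side, which is 14.2% of the scrmb level (limma, adjusted p = 0.00044). Genes of the skeletal muscle fibre were near the top of the scale, with a list mean of 19.28 to 19.43 in scrmb and 19.26 to 19.37 in MYTHO muscles. Background was taken as the 95th percentile of 1117 olfactory receptor probe sets on each array, genes best known from the nose, and a member was called above background on an array where its signal passed that level.

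This background was not the same in both groups. It was 7.23, 6.97, 7.02 and 6.72 on the scrmb arrays and 6.72, 6.65, 6.74 and 6.64 on the MYTHO arrays. The medians of the olfactory receptor probe sets were 5.25 to 5.61 and 5.22 to 5.29, and the median log2 fold change of these probe sets was -0.19, against -0.01 over all probe sets. Of the olfactory receptor probe sets, 15.6% had an unadjusted p under 0.05 with a lower signal in MYTHO muscles and 1.43% with a higher one. The 10529 probe sets above background on no array had a median log2 fold change of -0.04. The cause of the olfactory receptor difference was not tested.

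**Figure D1:**
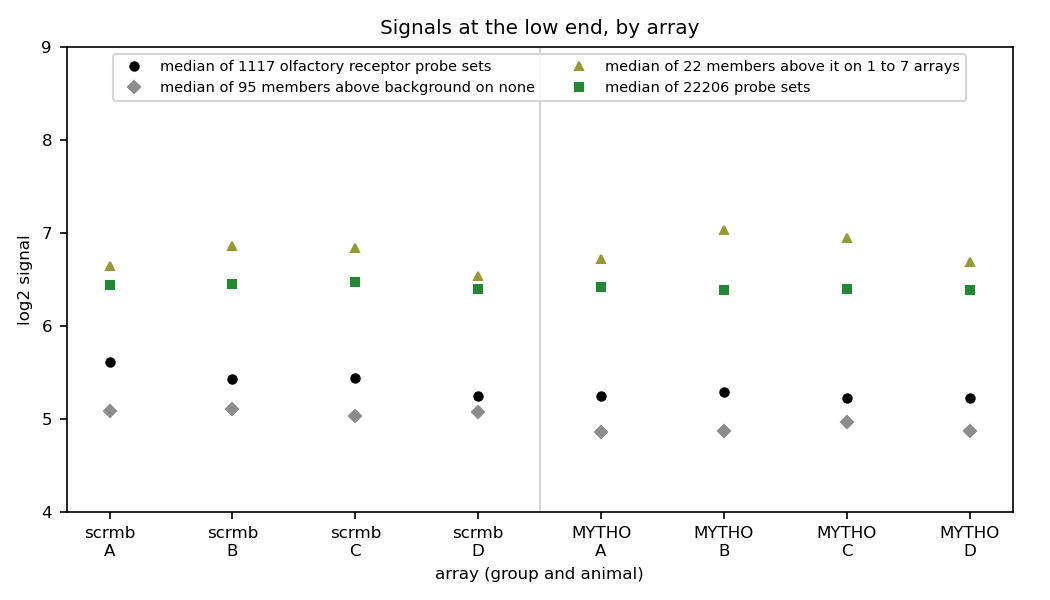
Median log2 signal on each array (group and animal) for 4 sets of probe sets: olfactory receptors, the 95 members above background on no array, the 22 members above it on 1 to 7 arrays, and all 22206 probe sets. The olfactory receptor medians of scrmb A, B and C (5.61, 5.43 and 5.44) sit above those of scrmb D (5.25) and of the 4 MYTHO arrays (5.22 to 5.29), while the medians of all probe sets stay between 6.39 and 6.47.

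Of the 136 members, 19 were above background on all 8 arrays, 22 on some and 95 on none. Those above it on all were 9 CC ligands, 3 CXC ligands, 1 CC receptor, 1 interleukin and 5 interleukin receptor chains. No CXC receptor was among them, and no soluble inhibitor was above background on any array, the brightest being *Il18bp*, the binding protein of interleukin-18, with a mean of 5.99. *Il4i1*, an amino acid oxidase induced by interleukin-4 whose probe set also names *Nup62*, was above it on 7 arrays with a log2 fold change of 0.17. Signals of different probe sets depend on their probes, so they say which genes were read above background and not which transcript was the more abundant.

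The CC ligands above background on all arrays were *Ccl11*, *Ccl27b*, *Ccl21a*, *Ccl21b*, *Ccl21c*, *Ccl27a*, *Ccl9*, *Ccl25* and *Ccl20*. *Ccl11*, which encodes eotaxin and acts on eosinophils through CCR3, had a log2 signal of 11.71, 12.08, 11.80 and 11.33 in the scrmb and 11.19, 12.02, 12.16 and 11.46 in the MYTHO muscles. The groups overlapped throughout, and the log2 fold change was -0.02 (95% interval -0.57 to 0.52). The ligands of CCR10, *Ccl27a* and *Ccl27b*, had means of 8.50 and 10.34 and log2 fold changes of 0.01 and 0.17. *Ccl9*, a chemokine of macrophages, ranged from 7.47 to 9.08 in scrmb and from 8.01 to 8.94 in MYTHO muscles.

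*Ccl21a*, *Ccl21b* and *Ccl21c* encode CCL21, which lymphatic endothelium and lymph node stroma make and which guides CCR7-bearing dendritic and T cells. *Ccl21a* read 9.36, 10.65, 10.10 and 9.58 in scrmb and 9.95, 9.01, 9.13 and 9.07 in MYTHO muscles. It was lower in the MYTHO leg of 3 animals and higher in that of animal A. The log2 fold changes were -0.63 (SE 0.30, unadjusted p = 0.0568) for *Ccl21a*, -0.59 for *Ccl21b* and -0.64 for *Ccl21c*. Without scrmb B they were -0.39, -0.27 and -0.42, and without scrmb A they were -0.82, -0.96 and -0.99. For *Ccl21a* the unadjusted p (limma) was 0.19 without scrmb B and 0.0203 without scrmb A. Without MYTHO A *Ccl21a* gave -0.85 (limma, unadjusted p = 0.0133). The genes are near-identical copies whose probe sets may read each other's transcripts, so the values are not separate observations. The other CCR7 ligand gene, *Ccl19*, was above background on 3 arrays, with a log2 fold change of 0.23; its other 5 probe sets gave -0.50 to 0.17.

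The inflammatory CC ligands were mostly below background. *Ccl2*, the main attractant of monocytes, read 6.30, 6.01, 6.40 and 5.83 in scrmb and 6.72, 6.04, 5.83 and 5.88 in MYTHO muscles, and passed background on none. *Ccl5*, a T cell and macrophage product, read 3.64 to 4.34 and 3.33 to 3.94. *Ccl3*, a macrophage chemokine, was lower in the MYTHO leg of 4 of 4 animals, at 4.74, 5.18, 5.52 and 5.28 against 4.04, 4.84, 4.52 and 4.92, with overlapping groups and an unadjusted p of 0.0273. All of these *Ccl3* values lay below background, and the log2 fold change of -0.60 became -0.41 (unadjusted p = 0.133) once each array was centred on its olfactory receptor probe sets.

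**Figure D2:**
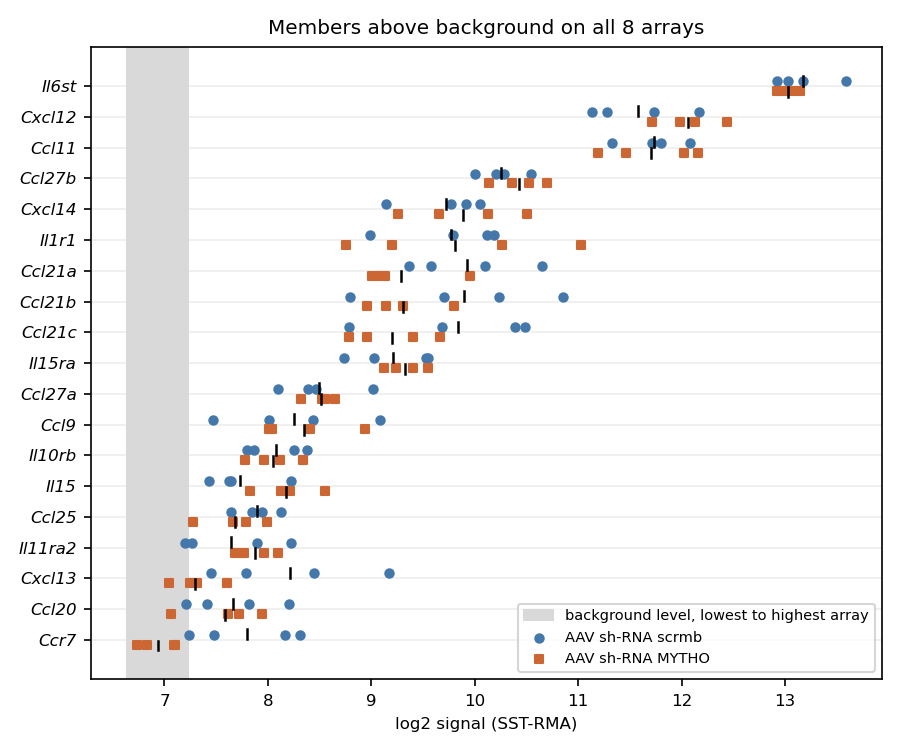
Log2 signal of the 19 members above background on all 8 arrays, 1 point per array, circles for AAV sh-RNA scrmb and squares for AAV sh-RNA MYTHO, with a black bar at each group mean. The grey band runs from the lowest to the highest background level of the 8 arrays (6.64 to 7.23); the groups overlap for all genes except *Ccr7*, whose MYTHO signals (6.73 to 7.10) lie below the scrmb ones (7.24 to 8.31).

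Among the CXC ligands, *Cxcl12*, *Cxcl14* and *Cxcl13* were above background on all arrays. *Cxcl12*, which stromal cells and endothelium make and which acts on CXCR4, read 12.17, 11.28, 11.13 and 11.73 in the scrmb and 12.44, 12.13, 11.98 and 11.71 in the MYTHO muscles. It was higher in the MYTHO leg of 3 animals and nearly equal in animal D, so that the groups overlapped. The log2 fold change was 0.49 (SE 0.25, 95% interval -0.06 to 1.03, unadjusted p = 0.0761), and the unadjusted p was 0.0486 with the animal as a block. After centring on the olfactory receptors it was 0.68 (unadjusted p = 0.0149). Of 8 endothelial marker genes, 6 were above background on all arrays, 2 (*Pecam1* and *Tek*) were higher and 0 lower at an unadjusted p under 0.05, where 4.81% and 7.58% of all probe sets were, 0 had an adjusted p under 0.05, and *Tek* had a log2 fold change of 0.86 (limma, adjusted p = 0.213). The list mean was 9.41 to 9.78 in scrmb and 9.93 to 10.15 in MYTHO muscles. Whether the endothelial share bears on *Cxcl12* was not tested. *Cxcl14*, a chemokine of epithelium and connective tissue, read 9.14 to 10.05 and 9.26 to 10.51.

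*Cxcl13* (chromosome 5, 95956939 to 95961068, GRCm38.p6) encodes the ligand of CXCR5 that draws B cells into follicles. Its log2 signal was 7.79, 9.17, 8.45 and 7.45 in scrmb and 7.04, 7.31, 7.25 and 7.60 in MYTHO muscles. It was lower in the MYTHO leg of 3 animals, by most in animal B, and slightly higher in animal D. The means were 8.21 ± 0.76 and 7.30 ± 0.23 (SD, n = 4 each). The log2 fold change was -0.92 (SE 0.32, unadjusted p = 0.0147; limma, adjusted p = 0.276), and -0.60 without scrmb B.

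The ligands of CXCR2, which draw neutrophils, were read below background. *Cxcl2* gave 4.37, 3.75, 4.25 and 3.73 in scrmb and 4.48, 4.76, 4.29 and 4.60 in MYTHO muscles, higher in 4 of 4 animals (log2 fold change 0.51, unadjusted p = 0.0298), and *Cxcl5* gave 4.90, 4.24, 4.05 and 4.13 against 4.83, 4.94, 4.70 and 4.77 (0.48, unadjusted p = 0.0406). Centring on the olfactory receptors adds the same amount to every log2 fold change, so it moved both differences further from 0 by construction, to 0.69 and 0.67. With the animal as a block, *Cxcl2* had an unadjusted p of 0.0515. None of the 8 neutrophil marker genes, *Ly6g*, *S100a8* and *S100a9* among them, passed background on any array, and the list mean was 4.78 to 5.0 in scrmb and 4.91 to 5.12 in MYTHO muscles.

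The interferon-induced ligands of CXCR3, *Cxcl9* and *Cxcl10*, were below background on all arrays, with log2 fold changes of 0.07 and -0.14. *Cxcl16*, which is made as a membrane protein and acts on CXCR6, passed background on 3 arrays. It read 6.48, 6.90, 6.70 and 6.50 in scrmb and 7.05, 7.56, 6.72 and 7.0 in MYTHO muscles, higher in 4 of 4 animals, by 0.44 on the log2 scale (unadjusted p = 0.0585, and 0.0483 with the animal as a block), and by 0.28 without MYTHO B.

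*Ccr7* (chromosome 11, 99144199 to 99155077, GRCm38.p6), the receptor for CCL19 and CCL21 on T cells, B cells and mature dendritic cells, was the only CC or CXC receptor gene of the set above background on all arrays. Its log2 signal was 8.31, 7.48, 8.17 and 7.24 in scrmb and 6.73, 6.83, 7.09 and 7.10 in MYTHO muscles. Every MYTHO value lay below every scrmb value, and the drop in animal D was the smallest. The means were 7.80 ± 0.52 and 6.94 ± 0.19 (SD, n = 4 each), with a log2 fold change of -0.86 (SE 0.25, unadjusted p = 0.00474; limma, adjusted p = 0.204). The MYTHO signals were close to the background of their arrays.

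Marker genes of lymphocytes, set beside *Ccr7* and *Cxcl13*, were mostly below background. Of 9 T cell genes read, 7 were below background on all arrays, among them *Cd3e*, *Cd3d* and *Cd3g*. *Cd4*, the only one above it on all arrays, read 8.41, 8.44, 8.73 and 8.09 in scrmb and 7.96, 8.03, 8.48 and 7.54 in MYTHO muscles, lower in 4 of 4 animals with overlapping groups (log2 fold change -0.41, unadjusted p = 0.0904). It was -0.26 without MYTHO D and -0.57 (unadjusted p = 0.0237) without MYTHO C. The list mean of T cell genes was 5.30 to 5.54 in scrmb and 5.19 to 5.52 in MYTHO muscles. All 6 B cell genes reported, *Ms4a1* and *Cd79a* among them, were below background on all arrays, with list means of 4.26 to 4.65 and 4.36 to 4.61. Of 8 dendritic cell genes, 6 were below it on all arrays (5.51 to 5.58 and 5.35 to 5.63). *H2-Ab1*, the only one above it on all arrays, was higher by 0.41 (limma, unadjusted p = 0.0545), in 3 of 4 animals. *Ptprc*, the CD45 gene of all leukocytes, passed background on 3 arrays. It read 7.20, 7.36, 7.29 and 6.68 in scrmb and 7.09, 6.30, 6.61 and 6.17 in MYTHO muscles, lower in 4 of 4 animals (log2 fold change -0.59, limma, unadjusted p = 0.029, adjusted p = 0.343). *Laptm5*, the only gene of all leukocytes above background on all arrays, gave 0.07. *Coro1a* and *Cd52* gave 0.15 and 0.18, and *Cd53* and *Lcp1* gave -0.35 and -0.23. The list mean of the 6 genes of all leukocytes overlapped, at 6.12 to 6.87 and 6.18 to 6.76. The part of leukocyte content, *Cd4* and *Ptprc* included, in the *Ccr7* and *Cxcl13* values was not tested.

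Of the other Ccr and Cxcr genes, none was above background on all arrays. *Ccr8*, a receptor of regulatory and type 2 T cells, read 5.67, 5.48, 5.56 and 4.74 in scrmb and 4.63, 4.75, 4.45 and 4.38 in MYTHO muscles (log2 fold change -0.81, unadjusted p = 0.00343; limma, adjusted p = 0.177). The overlap came from scrmb D alone, and without that array the adjusted p was 0.0443. In that fit 154 of all 22206 probe sets had an adjusted p under 0.05, against 6 with all arrays. *Ccr1l1*, a gene similar to *Ccr1*, gave 6.20, 5.87, 5.77 and 5.23 against 5.39, 4.92, 5.09 and 4.52 (-0.79, unadjusted p = 0.00768), lower in 4 of 4 animals. *Ccr4*, a receptor of type 2 and regulatory T cells, differed by -0.56 (unadjusted p = 0.0346, and 0.0522 with the animal as a block), and by -0.37 (0.17) after centring on the olfactory receptors. These 3 genes passed background on no array.

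*Cxcr4*, the receptor of CXCL12, was above background on 5 arrays, at 6.92, 6.60, 6.93 and 7.10 in scrmb and 6.92, 7.38, 7.10 and 7.27 in MYTHO muscles. It was higher in 3 animals and equal in animal A, and the log2 fold change of 0.28 had a 95% interval from -0.12 to 0.68. *Ccr2*, the receptor of CCL2 on monocytes, passed background on 1 array and had a log2 fold change of 0.03 (95% interval -0.60 to 0.65). *Cxcr5*, the receptor of CXCL13, had a mean of 4.80 and a log2 fold change of -0.32, below background on all arrays. Without scrmb A or without scrmb C the log2 fold change of *Cxcr5* was -0.17.

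**Figure D3:**
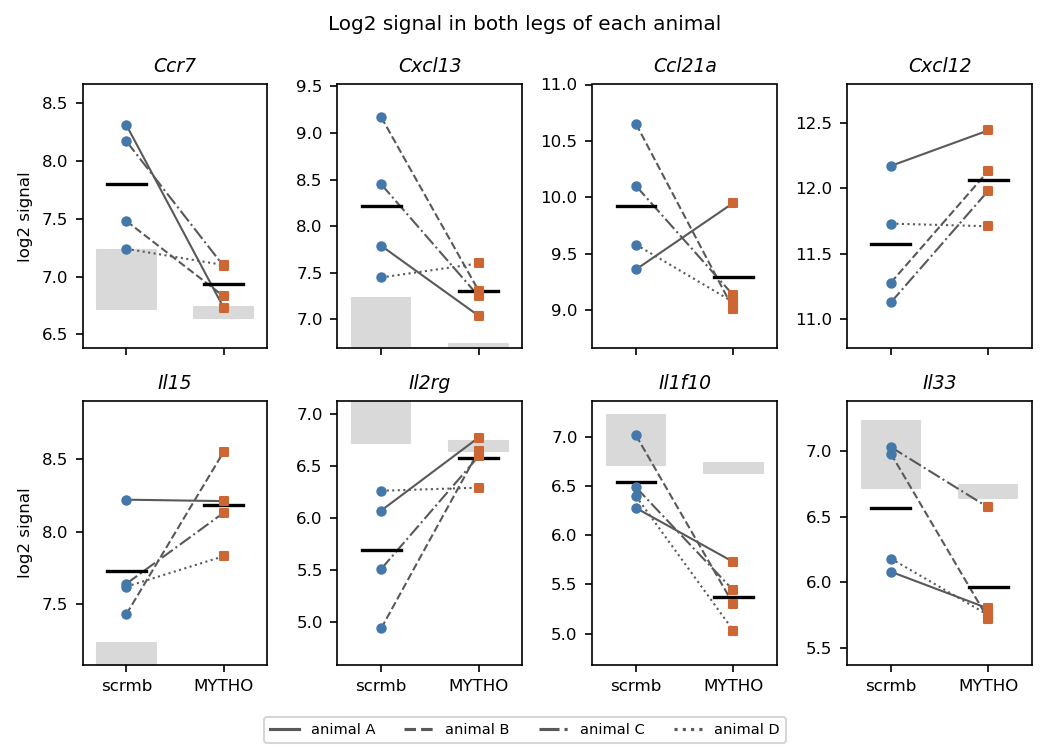
Log2 signal of 8 members in both legs of animals A to D, joined by lines, with a black bar at each group mean and grey boxes for the range of background in that group where it falls within the axis; each axis has its own range and does not start at 0. *Ccr7* and *Il1f10* are lower and *Il2rg* is higher in the MYTHO leg of all 4 animals without overlap between the groups, while *Cxcl13* and *Ccl21a* are lower in 3 of 4.

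*Il15* was the only interleukin above background on all arrays. Interleukin-15 is abundant in muscle and sustains natural killer and memory T cells. *Il15* read 8.22, 7.43, 7.64 and 7.62 in the scrmb and 8.21, 8.55, 8.13 and 7.83 in the MYTHO muscles. It was higher in the MYTHO leg of 3 animals, and the scrmb value of animal A lay within the MYTHO range. The log2 fold change was 0.45 (SE 0.22, 95% interval -0.03 to 0.94, unadjusted p = 0.0641), and 0.64 (0.0103) after centring on the olfactory receptors.

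A further 6 interleukins passed background on some arrays: *Il17b*, *Il16*, *Il33*, *Il34*, *Il12a* and *Il1f10*. *Il33* (chromosome 19, 29925113 to 29960718, GRCm38.p6) encodes a nuclear alarmin that connective tissue cells of muscle release and regulatory T cells sense. It read 6.08, 6.98, 7.03 and 6.18 in scrmb and 5.80, 5.72, 6.57 and 5.75 in MYTHO muscles, lower in 4 of 4 animals, with a log2 fold change of -0.61 (unadjusted p = 0.0491), and -0.42 (0.155) after centring on the olfactory receptors. Its receptor gene *Il1rl1* differed by -0.11. Of 8 marker genes of fibro-adipogenic progenitors and fibroblasts, 6 were above background on all arrays and their list means overlapped, at 10.17 to 10.38 and 10.19 to 10.58, with *Dcn* lower by 0.59 and *Ly6a* higher by 0.71 (limma, adjusted p = 0.236 and 0.129). Their part in the *Il33* values was not tested.

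*Il34*, a ligand of the CSF1 receptor, read 6.22, 5.99, 6.10 and 5.68 in scrmb and 6.35, 6.98, 6.75 and 5.77 in MYTHO muscles, higher in 4 of 4 animals (log2 fold change 0.47, unadjusted p = 0.0947, and 0.29 without MYTHO B). *Il16*, which encodes a precursor of a CD4 ligand, was also higher in 4 of 4 animals, by 0.30 (unadjusted p = 0.21; 0.17 without scrmb A and 0.45 without scrmb C), and the groups of both genes overlapped.

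*Il1f10* (chromosome 2, 24291196 to 24294165, GRCm38.p6), which encodes interleukin-38, a member of the interleukin-1 family described as an antagonist, had the lowest p of all members. Its log2 signal was 6.28, 7.02, 6.49 and 6.40 in scrmb and 5.73, 5.30, 5.44 and 5.03 in MYTHO muscles. The groups did not overlap, but only scrmb B passed background, which was 6.97 on that array. The means were 6.55 ± 0.33 and 5.38 ± 0.29 (SD, n = 4 each), a log2 fold change of -1.17 (SE 0.22, unadjusted p = 0.000172; limma, adjusted p = 0.0767). The adjusted p was 0.158 with the animal as a block, 0.0318 with eBayes set to trend and robust, and 0.0482 without the saturated probe sets, so its side of the threshold turned on the fit. Over all probe sets, 2, 160 and 60 had an adjusted p under 0.05 in these fits, against 6 in the fit reported. After centring on the olfactory receptors the log2 fold change was -0.98.

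*Il6*, *Il1b*, *Il10* and *Il18* were below background on all arrays. *Il6*, which contracting muscle releases, read 4.87, 4.31, 4.75 and 3.97 in scrmb and 4.17, 4.45, 4.86 and 5.03 in MYTHO muscles. *Il1b*, the main inflammatory product of macrophages, read 4.96 to 5.83 and 5.62 to 6.04. *Il10*, an anti-inflammatory cytokine, read 4.04 to 5.19 and 4.38 to 5.08, and *Il18*, which inflammasomes activate, 4.80 to 5.29 and 4.41 to 5.12. The log2 fold changes were 0.15, 0.28, -0.02 and -0.30, with overlapping groups in each case and no unadjusted p under 0.05. Without scrmb A *Il1b* gave 0.09, and without MYTHO A *Il18* gave -0.17.

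The receptor chains above background on all arrays were *Il6st*, *Il1r1*, *Il15ra*, *Il10rb* and *Il11ra2*. *Il6st*, the gp130 chain through which interleukin-6, interleukin-11, LIF and CNTF signal, read 13.03, 12.92, 13.59 and 13.17 in scrmb and 12.99, 12.92, 13.07 and 13.14 in MYTHO muscles. The log2 fold change was -0.15 (95% interval -0.56 to 0.26), and scrmb C stood above the other arrays. *Il15ra*, which presents interleukin-15 to neighbouring cells, gave 0.12 (-0.36 to 0.59), *Il10rb*, a chain shared by the interleukin-10 family, gave -0.03 (-0.46 to 0.41), and *Il11ra2*, a mouse copy of the interleukin-11 receptor gene, gave 0.23 (-0.30 to 0.76).

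*Il1r1*, the signalling receptor for interleukin-1, spread most within a group among these genes, at 8.99, 10.19, 9.79 and 10.12 in scrmb and 10.26, 8.76, 9.20 and 11.03 in MYTHO muscles. The SD was 0.55 and 1.03, and the log2 fold change of 0.04 had a 95% interval from -0.92 to 1.00.

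*Il2rg* (chromosome X, 101264385 to 101268255, GRCm38.p6), the common gamma chain that interleukin-2, interleukin-4, interleukin-7, interleukin-15 and interleukin-21 need, read 6.07, 4.94, 5.51 and 6.26 in scrmb and 6.77, 6.64, 6.59 and 6.29 in MYTHO muscles. It was higher in 4 of 4 animals without overlap, only slightly so in animal D, and passed background only in MYTHO A. The means were 5.70 ± 0.60 and 6.57 ± 0.20 (SD, n = 4 each), with a log2 fold change of 0.88 (SE 0.27, unadjusted p = 0.00716; limma, adjusted p = 0.223). Among the genes of its partner chains, *Il2ra*, *Il2rb*, *Il7r*, *Il9r* and *Il21r* were below background on all arrays. *Il4ra* and *Il15ra* were above it on 6 and 8 arrays and gave 0.29 and 0.12 (-0.04 without scrmb C), and none of the 7 had an unadjusted p under 0.05.

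*Il4ra*, the shared chain of the interleukin-4 and interleukin-13 receptors, was above background on 6 arrays, and *Il13ra1*, its partner, on 7, with log2 fold changes of 0.29 and 0.35 (unadjusted p = 0.147 and 0.0734). *Il6ra*, which binds interleukin-6 before gp130, was above background on 2 arrays, at 6.19, 6.81, 6.02 and 6.64 in scrmb and 6.32, 7.08, 6.93 and 5.88 in MYTHO muscles. The chains *Il20ra* (-0.67, unadjusted p = 0.0126), *Il17re*, the receptor of interleukin-17C (-0.61, 0.0227), and *Il10ra*, the ligand-binding chain for interleukin-10 (-0.55, 0.025), were lower in 4 of 4 animals each. All 3 were below background on all arrays, their groups overlapped, and their unadjusted p was 0.0548, 0.0957 and 0.123 after centring on the olfactory receptors.

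Of the 136 members, 3 had an unadjusted p under 0.05 with a higher and 11 with a lower signal in MYTHO muscles, beside 4.81% and 7.58% of all probe sets. With the animal as a block the counts were 5 and 12, beside 4.94% and 7.66% of all probe sets. An adjusted p under 0.05 was reached by 0 members and by 0.027% of all probe sets. The threshold of the study, a 2-fold change with an unadjusted p under 0.05, was passed by *Il1f10* alone, where 1.51% of all probe sets passed it. The groups did not overlap for 1 member that was higher (*Il2rg*) and 2 that were lower (*Ccr7* and *Il1f10*), against 2.59% and 3.87% of all probe sets. The median log2 fold change was -0.02 over the members and -0.01 over all probe sets.

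The counts are also given by how many arrays passed background, beside the same share over all probe sets of that kind. Of the 19 above it on all arrays, 0 were higher and 2 lower (*Ccr7* and *Cxcl13*) at an unadjusted p under 0.05, and of all probe sets of that kind 6.25% were higher and 8.36% lower. Of the 95 above it on none, 2 were higher and 7 lower, and of all such probe sets 2.96% and 6.43%. In this class 63 members had a log2 fold change below 0 and 31 above it, beside 55.3% and 44.4% of all such probe sets, and the class median on each array was 5.03 to 5.10 in scrmb and 4.86 to 4.97 in MYTHO muscles. No count by direction is given for the 22 above background on some arrays. Entry to the classes is tied to the direction of the difference, and the background level was higher on scrmb A, B and C than on the other arrays. Each array centred on its olfactory receptor probe sets gave 15 members higher and 5 lower at an unadjusted p under 0.05, where 13.1% of all probe sets were higher and 3.29% lower, with a median over all probe sets of 0.18 and over the members of 0.16. Of the 14 members under an unadjusted p of 0.05, 8 remained, *Ccr7*, *Cxcl13*, *Il1f10*, *Il2rg*, *Ccr8*, *Ccr1l1*, *Cxcl2* and *Cxcl5*, and the 3 higher ones among these were moved further from 0 by construction. The 12 others under that p after centring, *Ccl12*, *Cxcl1*, *Cxcl12*, *Cxcl16*, *Cxcr3*, *Cxcr4*, *Il13ra1*, *Il15*, *Il17rd*, *Il34*, *Il4ra* and *Il5ra*, were all higher.

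**Figure D4:**
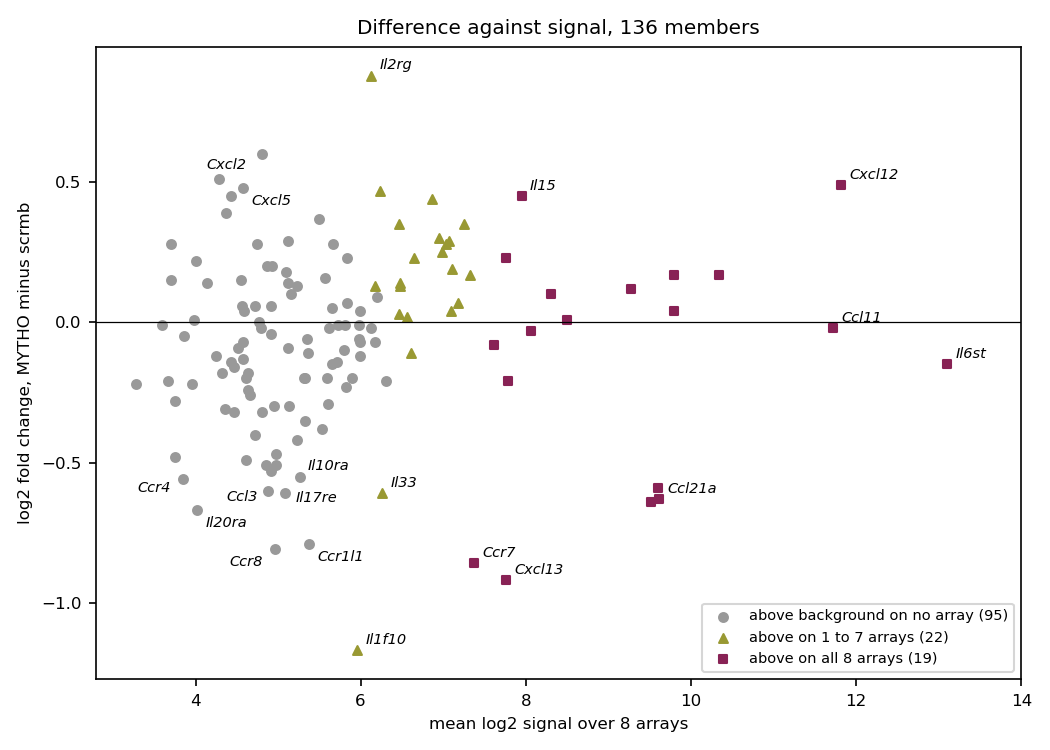
Log2 fold change (MYTHO minus scrmb) against the mean log2 signal over 8 arrays for the 136 members, marked by how many arrays they passed background on; names are given for members with an unadjusted p under 0.05 and for *Il6st*, *Cxcl12*, *Ccl11*, *Il15* and *Ccl21a*. Of the 14 members with an unadjusted p under 0.05, only *Ccr7* and *Cxcl13* are above background on all arrays.

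No gene of the 5 lists of related pathway genes reached an adjusted p under 0.05, and their counts at an unadjusted p under 0.05 stand beside 4.81% higher and 7.58% lower over all probe sets. Among 13 other genes of the chemokine system, 3 were above background on all arrays, 1 had an unadjusted p under 0.05 and the median log2 fold change was 0.07. That gene was *Ackr4*, a scavenger of CCL19, CCL21 and CCL25, higher in 4 of 4 animals by 0.56 (limma, adjusted p = 0.308) and below background on all arrays. *Ackr3*, the scavenger of CXCL12, read 7.12 to 7.74 in scrmb and 6.96 to 8.35 in MYTHO muscles. Of 14 other genes of gp130 cytokines and relatives, *Lifr*, *Osmr*, *Cntf*, *Cntfr* and *Ctf1* were above background on all arrays, and only *Clcf1*, which was not, had an unadjusted p under 0.05 (0.43, limma, adjusted p = 0.303). *Cntfr*, the CNTF receptor, was higher in 4 of 4 animals by 0.60 with overlapping groups (unadjusted p = 0.0565), and by 0.35 without MYTHO D.

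Of 20 other cytokine and receptor genes, 2 were higher and 1 lower at an unadjusted p under 0.05, where 4.81% and 7.58% of all probe sets were. *Tnfrsf1a*, the main TNF receptor, read 9.77, 8.89, 7.97 and 9.23 in scrmb and 10.11, 9.88, 10.23 and 9.79 in MYTHO muscles (log2 fold change 1.04, limma, adjusted p = 0.218). *Mif*, a cytokine found in most cells, read 8.64, 8.61, 7.57 and 8.52 against 9.14, 9.94, 8.82 and 9.16 (0.93, limma, adjusted p = 0.234). Both were above background on all arrays and higher in 4 of 4 animals without overlap, with scrmb C the lowest of its group. *Tnf* itself was below background on all arrays, at 4.30 to 4.57 and 4.40 to 4.74, as was *Ifng*, which was lower by 0.38 (limma, adjusted p = 0.372).

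Of 21 genes of JAK-STAT signalling and its SOCS inhibitors, 13 were above background on all arrays and *Pias3*, an inhibitor of STAT3, alone had an unadjusted p under 0.05 (0.36). *Socs3*, which STAT3 induces, was below background on all arrays with a log2 fold change of 0.35, and 0.15 without MYTHO C (unadjusted p = 0.146 with all arrays), and *Stat3* gave 0.15. Of 23 genes between the interleukin-1 receptor and NF-kB, 13 were above background on all arrays and 3 had an unadjusted p under 0.05, all higher: *Chuk*, a kinase of the inhibitor of NF-kB, by 0.47, *Tnfaip3*, the feedback inhibitor A20, by 0.51, and *Nfkb2*, which was below background on all arrays, by 0.54 (limma, adjusted p = 0.289, 0.287 and 0.307). The median log2 fold changes of the lists were 0.07 to 0.14, against -0.01 over all probe sets.

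Markers of other leukocytes overlapped between the groups. Of 12 macrophage genes, 2 (*Mrc1* and *Lyz2*) were above background on all arrays and 6 on none, with list means of 6.75 to 7.07 in scrmb and 6.85 to 7.02 in MYTHO muscles. All 7 natural killer cell genes were below background on all arrays (4.73 to 5.04 and 4.73 to 4.97). Mast cell genes gave list means of 5.81 to 6.43 and 5.98 to 6.24, and blood and platelet genes 10.48 to 11.71 and 10.71 to 12.43.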

How the data were processed

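The series holds 8 Clariom S Mouse arrays of GAS muscle, 4 per group. The authors deposited gene-level log2 signals made with Transcriptome Analysis Console version 4.0.1 (SST-RMA, default settings, annotation release 36, GRCm38.p6), rounded to 2 decimals. SST-RMA corrects background and normalizes across arrays, which can compress low signals. The authors also deposited group averages, fold changes, p-values and false discovery rates, which were not used.

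MYTHO and scrmb arrays were set against each other by limma (version 3.58.1, under R 4.3.3; lmFit and eBayes, default settings, two-sided; the study names an eBayes test and no block, and none was used) on all 22206 probe sets, with Benjamini-Hochberg adjustment; the steps were tested on simulated data. For the target, an exact permutation test over 70 relabellings, which ignored the pairing of the legs, gave p = 0.0286, the smallest these relabellings allow. SDs are over the 4 arrays of a group, intervals are at 95%, and the number of arrays limits the precision. A probe set at the ceiling of 19.93 is saturated; 18 were so on all arrays.

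Each column is named with the number of an animal found once per group, and the study injected both legs of an animal, so arrays sharing a number were taken as pairs. Their deviations from the group means correlated at 0.00266, -0.00145, 0.135 and 0.0871 in animals A to D. The fit with the animal as a replicate block gave 5 members higher and 12 lower at an unadjusted p under 0.05, beside 4.94% and 7.66% of all probe sets. Which column holds which labelled replicate is not known.

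Members named were those with an unadjusted p under 0.05, the 10 of highest mean signal, 18 well-known genes, and the brightest of each role; others were named after their values were seen. The members and lists were chosen with earlier results of these data known. One marker gene is not reported here. Alternatives were other scalings, filters, variance models and blocks, other background levels, and leaving out each array. Promoter windows came from the RefSeq table for GRCm38.p6, the assembly of mm10.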

Additional observations from a re-analysis of the deposited data

Results flagged for a closer look

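In 114 groups of 4 values, 4 had a highest or lowest value far from the other 3 (Dixon's test at 95%), where chance gives about 1 in 20. *Ccl21a* in MYTHO A was 9.95, against 9.01 to 9.13 in the other MYTHO muscles. *Il33* in MYTHO C was 6.57, against 5.72 to 5.80. *Il4ra* in scrmb B was 7.33, against 6.73 to 6.82 in the other scrmb muscles. The mean of the 5 satellite cell marker genes in scrmb D was 6.11, against 5.94 to 5.95 in the other scrmb muscles and 6.10 to 6.11 in the MYTHO muscles; 4 of these genes, *Pax7* among them, were below background on all arrays.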

How the results depend on the processing

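Under the 18 alternatives, a named gene gained a call in 3 of 686 comparisons and its sign turned in 39, each time for a gene that was not called. The target was the only named gene with an adjusted p under 0.05 to begin with, so no member could lose a call. The counts of members higher and lower at an unadjusted p under 0.05 were 3 and 11 as reported. They were 5 and 10 with quantile normalization (5.8% and 6.89% of all probe sets) and 6 and 10 with median centring (6.09% and 6.34% of all). With only the upper 75% of probe sets by signal kept, they were 1 and 5 of the 77 members fitted (5.68% and 8.48% of those probe sets). With the animal as a replicate block they were 5 and 12 (4.94% and 7.66% of all). Centring on the olfactory receptor probe sets, an alternative chosen after seeing the data, gave 15 and 5 (13.1% and 3.29% of all). An adjusted p under 0.05 was reached by 1 member with trend and robust and by 1 without the saturated probe sets (*Il1f10*), and by 1 without scrmb D (*Ccr8*, log2 fold change -1.02). Over all probe sets, 160, 60 and 154 reached it in these fits, against 6 in the fit reported. The block lost *Ccr4* and *Cxcl2* and gained *Cxcl12*, *Cxcl16*, *Ccl22*, *Il1f8* and *Il5ra*, and it changed no other call.

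The median log2 fold change over the members was 0.02 with median centring, 0.16 with centring on the olfactory receptors, and -0.07 to -0.03 with each array left out. Leaving out each array gave 2 to 7 members higher and 10 to 15 lower at an unadjusted p under 0.05 (most without scrmb A), 0 to 1 at an adjusted p under 0.05, 1 to 5 past 2-fold (5 without scrmb D), and 1 to 6 higher and 4 to 9 lower without overlap (6 without scrmb A, 9 without scrmb D), where fewer arrays overlap less by construction.

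The log2 fold change turned positive under median centring for *Ccl11* (0.0175), *Ccl2* (0.0225) and *Il10* (0.02), under quantile normalization for *Ccl2* (0.0134) and *Il10* (0.0297), and under olfactory receptor centring for *Ccl11* (0.17), *Ccl2* (0.17), *Il10* (0.17), *Cxcl10* (0.05) and *Il6st* (0.04). With each array left out it ran from -0.17 to 0.15 for *Ccl11*, -0.22 to 0.0783 for *Ccl2*, -0.24 to 0.21 for *Ccr2*, -0.39 to 0.04 for *Cxcl10*, -0.04 to 0.38 for *Cxcl14*, -0.07 to 0.26 for *Cxcl9*, -0.27 to 0.11 for *Il10*, -0.0425 to 0.23 for *Il15ra*, -0.37 to 0.39 for *Il1r1*, -0.0158 to 0.30 for *Il6* and -0.0383 to 0.36 for *Il6ra*. The cause was not tested. With the 99th percentile of the olfactory receptors as background 13 members were above it on all arrays, and with the median of all probe sets 27, in place of 19. *Ccr7* and *Cxcl13* were not among the 13: on MYTHO A they read 6.73 and 7.04, where the 99th percentile was 7.38.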
